A study of Mus musculus with 8 samples.

Results

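The small leucine-rich proteoglycans are a family of secreted matrix proteins, and 9 of their genes are described here, Bgn, Dcn, Aspn, Fmod, Lum, Prelp, Kera, Omd and Ogn. They were chosen by family, and the family was selected on measured values, because Bgn, Dcn and Fmod had large differences between tolerant and rejecting samples on the arrays numbered 3 and 4. Differences of the 9 genes between the groups are therefore a description, with no test. Each of the 9 had 1 probe set, among 18820 genes represented by 21218 probe sets with a single gene symbol. The samples were CD3-positive T cells recovered at day 30 from grafts of tissue derived from human embryonic stem cells, carried by wildtype CD1 mice, an outbred strain. In the 4 rejecting samples the host was untreated, and in the 4 tolerant samples it had received injections of antibodies to CD4, to CD8 and to CD40L (the ligand with which helper T cells stimulate antigen-presenting cells), which tolerised it to the graft. The arrays carry mouse probes and the grafts were human. Whether the samples came from different mice is not in the labels, so p-values cover only the spread seen between these samples, and that spread may be technical.

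Small leucine-rich proteoglycans have a core of leucine-rich repeats, and most carry chondroitin, dermatan or keratan sulfate chains. They bind collagen fibrils and regulate fibril diameter and spacing, and several also bind transforming growth factor beta. Soluble biglycan and decorin are ligands of Toll-like receptors and can act as danger signals in inflamed tissue. Fibroblasts, chondrocytes, osteoblasts and other mesenchymal cells are their main producers, and T cells are not counted among these.

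All values are on the log2 RMA scale, and a difference is tolerant minus rejecting unless stated otherwise. The background line of an array was the 99th percentile of its 1182 probe sets for odorant and pheromone receptors, and the 8 lines lay between 0.99 and 1.35. The arrays formed 2 sets that did not follow the groups. On the 4 arrays numbered 1 and 2, between 2.52% and 5.57% of genes lay above the line, and on the 4 numbered 3 and 4, between 9.12% and 16.3% did. Each set held 2 rejecting and 2 tolerant arrays, so values are given for each set apart. Of 9 measured T cell markers, 0 or 1 lay above the line on each array numbered 1 and 2, and on rejecting 3, rejecting 4, tolerant 3 and tolerant 4 the numbers were 2, 3, 3 and 6. Cd3e, the epsilon chain of the T cell receptor complex, read 1.51 and 2.36 on rejecting and 2.75 and 3.82 on tolerant arrays 3 and 4, while Cd3d and Cd247, other chains of the complex, were under the line on all 8 arrays.

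The sequences upstream of 5 members are shown because Bgn, Fmod and Ogn were above background on both tolerant arrays numbered 3 and 4, while Aspn and Omd, which neighbour Ogn on chromosome 13, were under background on all arrays. Each is the 250 bases before the gene's start, 5′ to 3′ on the gene's own strand (+ for all 5), from RefSeq on GRCm38.p6. The windows are chrX:73483351-73483600 for Bgn, chr1:134037004-134037253 for Fmod, chr13:49607765-49608014 for Ogn, chr13:49544193-49544442 for Aspn and chr13:49582212-49582461 for Omd. Capitals mark matches, on either strand, to any of the motifs searched.
Bgn: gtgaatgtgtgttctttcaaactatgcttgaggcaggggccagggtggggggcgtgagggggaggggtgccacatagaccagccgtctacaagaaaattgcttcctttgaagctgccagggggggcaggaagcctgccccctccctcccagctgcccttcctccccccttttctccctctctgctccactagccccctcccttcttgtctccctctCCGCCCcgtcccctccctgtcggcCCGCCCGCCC
Fmod: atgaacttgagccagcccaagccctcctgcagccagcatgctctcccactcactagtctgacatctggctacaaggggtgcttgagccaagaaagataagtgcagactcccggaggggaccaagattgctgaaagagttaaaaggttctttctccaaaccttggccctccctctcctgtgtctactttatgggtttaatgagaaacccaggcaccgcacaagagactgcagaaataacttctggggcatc
Ogn: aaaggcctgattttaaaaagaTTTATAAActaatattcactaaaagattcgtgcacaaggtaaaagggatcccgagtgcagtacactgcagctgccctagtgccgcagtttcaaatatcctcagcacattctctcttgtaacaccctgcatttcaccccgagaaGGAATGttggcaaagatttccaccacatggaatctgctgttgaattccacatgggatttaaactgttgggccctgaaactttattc
Aspn: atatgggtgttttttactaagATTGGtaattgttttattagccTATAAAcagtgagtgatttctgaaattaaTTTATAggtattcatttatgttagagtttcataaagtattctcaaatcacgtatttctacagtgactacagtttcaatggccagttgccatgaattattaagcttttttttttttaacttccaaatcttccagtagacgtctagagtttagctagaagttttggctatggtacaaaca
Omd: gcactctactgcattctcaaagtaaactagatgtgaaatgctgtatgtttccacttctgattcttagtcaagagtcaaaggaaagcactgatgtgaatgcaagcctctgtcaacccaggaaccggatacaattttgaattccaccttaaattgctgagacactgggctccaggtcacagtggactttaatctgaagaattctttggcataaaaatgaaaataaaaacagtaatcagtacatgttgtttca

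Promoter windows were found for 7 of the 9 members, and Dcn and Lum had no entry. A set of 6 motifs, chosen after the values were known, was searched on both strands. Among 32851 windows of the same length, TATAAA was present in 12.4%, CCAAT in 33.8%, GGGCGG in 32.7%, TGANTCA in 6.75%, CATTCC in 12.6% and the CArG box, the site of serum response factor, in 1.47%. The Bgn window held GGGCGG, a binding motif of Sp-family factors, 3 times on the other strand, and the pair nearest the start overlapped. GC bases made up 64.4% of it, against a median of 52.4% over all windows. In the Ogn window TATAAA matched once on each strand at overlapping positions at the far end of the window, and CATTCC, the TEAD motif, matched once. The Aspn window, 30.0% GC, held TATAAA 2 times and CCAAT once. No motif matched in the Fmod or Omd window, with GC shares of 51.2% and 38.4%. So the 3 windows of genes above background shared no motif among the 6 searched.

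Class I of the family holds Bgn, Dcn and Aspn, and here Bgn and Dcn had the 2 largest differences of the 9 on arrays 3 and 4. Bgn (probe set 10600169) encodes biglycan, a chondroitin or dermatan sulfate proteoglycan. It read 1.46 and 1.59 on rejecting arrays 3 and 4, against 4.16 and 4.06 on tolerant arrays 3 and 4. On arrays 1 and 2 it read 0.81 and 1.32 in rejecting samples and 0.76 and 0.84 in tolerant ones. Bgn was thus high on 2 of the 4 tolerant arrays, and the groups did not overlap on arrays 3 and 4 but did on arrays 1 and 2. The difference on arrays 3 and 4 was 2.59 (standard error 0.11), or 6.01-fold, with the 4 values above the line.

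Dcn (10365974) encodes decorin, named for the way it decorates collagen fibrils. Its values were 1.76 and 1.10 on rejecting arrays 3 and 4, against 4.90 and 4.39 on tolerant arrays 3 and 4. They were, on arrays 1 and 2, 0.65 and 0.52 in rejecting samples and 0.33 and 0.87 in tolerant ones. These 4 values were all under the line. On arrays 3 and 4 the difference was 3.21 (standard error 0.27). Rejecting array 4 was under its line, so the fold is a bound, at least 9.14-fold, taken against the higher of the line and the measured value on each rejecting array. In such bulk samples, more cells that express a gene and more RNA per cell cannot be told apart.

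Aspn (10405047), asporin, lacks the usual chain and has a stretch of aspartate residues. Its 8 values ran from 0.08 to 0.49, all under the line, and the difference on arrays 3 and 4 was 0.02. No level of Aspn can be told from background on these arrays, which does not show that it was unexpressed.

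**Figure D1:**
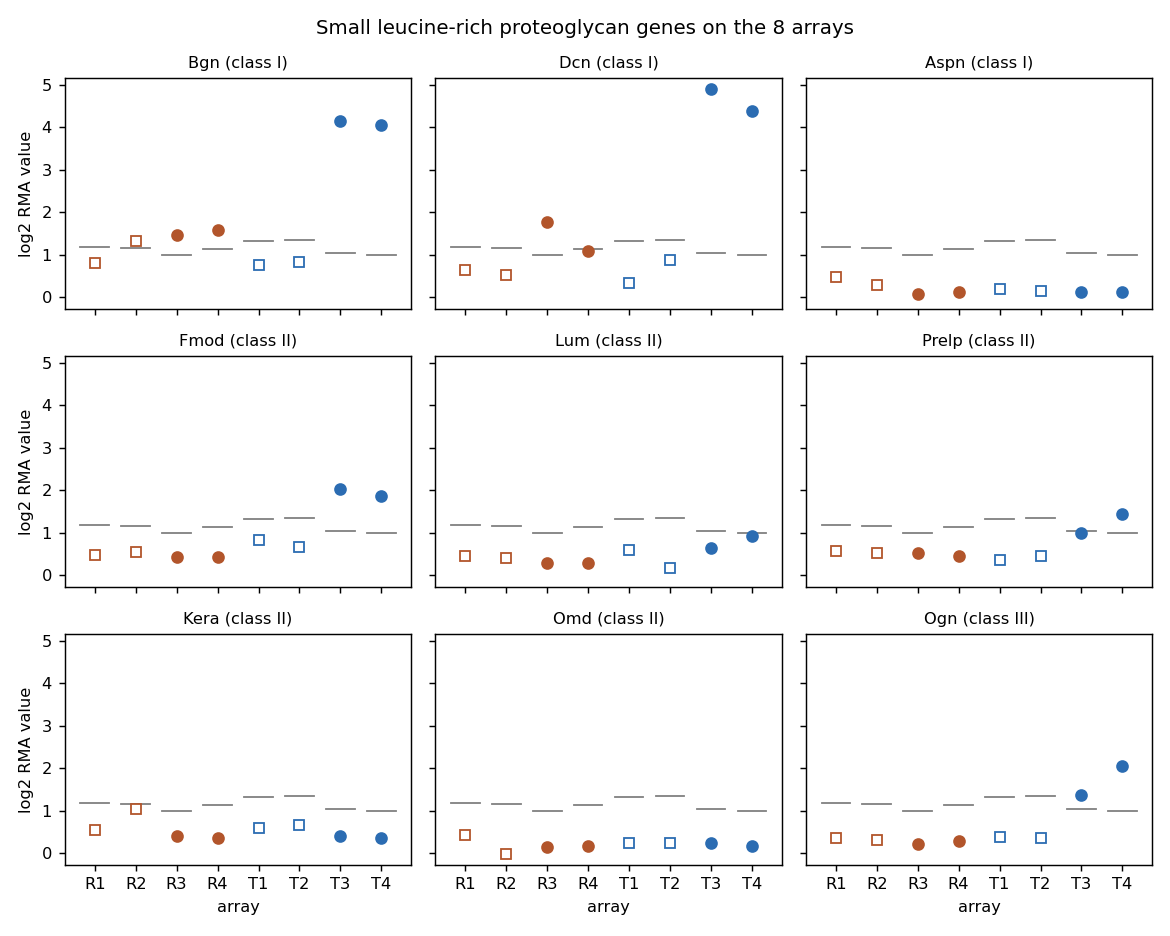
Log2 RMA value of each of the 9 genes on the 8 arrays, R for rejecting and T for tolerant with the array number; filled circles are arrays numbered 3 and 4, open squares arrays numbered 1 and 2, and grey bars each array's background line. Bgn, Dcn, Fmod and Ogn lie above the line on both tolerant arrays 3 and 4, and Aspn, Lum, Kera and Omd lie under it on all 8 arrays.

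Class II holds Fmod, Lum, Prelp, Kera and Omd, most of which carry keratan sulfate or sulfated tyrosines, and the 5 did not read alike. Fmod (10349947) encodes fibromodulin, a collagen-binding protein of tendon and cartilage. It read 0.43 and 0.43 on rejecting arrays 3 and 4, against 2.04 and 1.87 on tolerant arrays 3 and 4. It read, on arrays 1 and 2, 0.47 and 0.55 in rejecting samples and 0.83 and 0.66 in tolerant ones. The lowest tolerant value therefore exceeded the highest rejecting one over all 8 arrays, but only the 2 values from tolerant arrays 3 and 4 were above the line. The difference on arrays 3 and 4 was 1.53 (standard error 0.11), and with the rejecting arrays set at their lines the fold was at least 1.84-fold higher.

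Prelp (10357870), which links basement membranes to collagen, read 0.52 and 0.47 on rejecting arrays 3 and 4, against 1.00 and 1.44 on tolerant arrays 3 and 4. Only the value on tolerant array 4 was above its line. The 4 values on arrays 1 and 2 ran from 0.36 to 0.58, with both tolerant values below both rejecting ones. Its differences were 0.73 (standard error 0.17) on arrays 3 and 4 and -0.15 on arrays 1 and 2.

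Lum (10365983) encodes lumican, a keratan sulfate proteoglycan of cornea and other connective tissue. It read 0.30 and 0.28 on rejecting arrays 3 and 4, against 0.64 and 0.92 on tolerant arrays 3 and 4. Its values on arrays 1 and 2 were 0.45 and 0.42, and 0.59 and 0.17. The groups did not overlap on arrays 3 and 4, where the difference was 0.49 (standard error 0.13), but all 8 values were under the line.

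Kera (10365987), the corneal keratocan, and Omd (10405058), the bone proteoglycan osteomodulin, stayed under the line on all 8 arrays. Kera read 0.41 and 0.37 on rejecting and 0.41 and 0.36 on tolerant arrays 3 and 4, and its highest value, 1.04, was on rejecting array 2. Omd read 0.15 and 0.18 on rejecting and 0.23 and 0.17 on tolerant arrays 3 and 4, and the groups overlapped. The differences there were -0.01 and 0.04. Under cyclic loess the Kera difference was 0.03, so its sign depended on the scaling.

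Ogn (10405063), the class III member osteoglycin or mimecan, read 0.23 and 0.29 on rejecting arrays 3 and 4, against 1.36 and 2.06 on tolerant arrays 3 and 4. Both tolerant values were above the line and both rejecting values under it. On arrays 1 and 2 it read 0.36 and 0.31 in rejecting samples and 0.39 and 0.37 in tolerant ones, all under the line. The difference on arrays 3 and 4 was 1.45 (standard error 0.24), and against the lines the fold was at least 1.56-fold. Bgn, Dcn and Fmod were higher on tolerant array 3 than on tolerant array 4, and Ogn and Prelp were higher on tolerant array 4.

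Neighbouring genes of the family did not read alike. In the GRCm38.p6 gene order, Dcn, Lum, Kera and Epyc follow each other on chromosome 10. Of these Dcn was above the line, on 3 arrays, and Lum, Kera and Epyc were above it on 0. On chromosome 13 the order is Ecm2, Aspn, Omd and Ogn, and only Ogn was above the line, on 2 arrays. On chromosome 1, Optc was above it on 0 arrays, Prelp on 1 and Fmod on 2. Bgn lies on the X chromosome between Haus7 and Atp2b3, apart from the other members. Each of the 3 clusters thus held at least 1 gene above background on a tolerant array and at least 1 under it on all 8. These counts use the line at the 99th percentile. With the line at the 95th, Lum was also above it on tolerant arrays 3 and 4, and Prelp on both of these rather than on tolerant array 4 alone. Among rejecting arrays, Dcn was then also above it on array 4 (1.10, line 0.69) and Kera on array 2 (1.04, line 0.87).

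Counted over the family on arrays 3 and 4, 8 of the 9 genes were higher in tolerant samples. Of these, Aspn and Omd were higher by less than their errors, 0.02 and 0.04 (standard error 0.10 each), and were under the line throughout. The other gene, Kera, was lower, also by less than its error. The median of the 9 differences was 0.73, and over all 21218 probe sets it was -0.01, with 48.2% higher. The groups did not overlap, tolerant higher, for 6 members (Bgn, Dcn, Fmod, Lum, Prelp and Ogn), against 19.3% of all probe sets. Differences of at least 1 were measured for 4 members (Bgn, Dcn, Fmod and Ogn), against 0.528% of all probe sets. Limma with Benjamini-Hochberg adjustment over all probe sets, at a threshold of 0.05, called 2 members higher, Bgn and Fmod, against 0.0471% of all. Because this contrast chose the family, nothing is read from these counts. Genes above the line made up 14.3% and 9.12% on rejecting arrays 3 and 4 and, with 16.3% and 15.9%, more on tolerant ones, and the part of this signal in the differences was not tested. The calls rested on few arrays: with the replicate number as a block Bgn and Dcn were called and Fmod was not, and without tolerant array 3 or without tolerant array 4 limma called 0 probe sets in all. Without rejecting array 3 Bgn alone was called among the members, and without rejecting array 4 Bgn and Dcn.

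**Figure D2:**
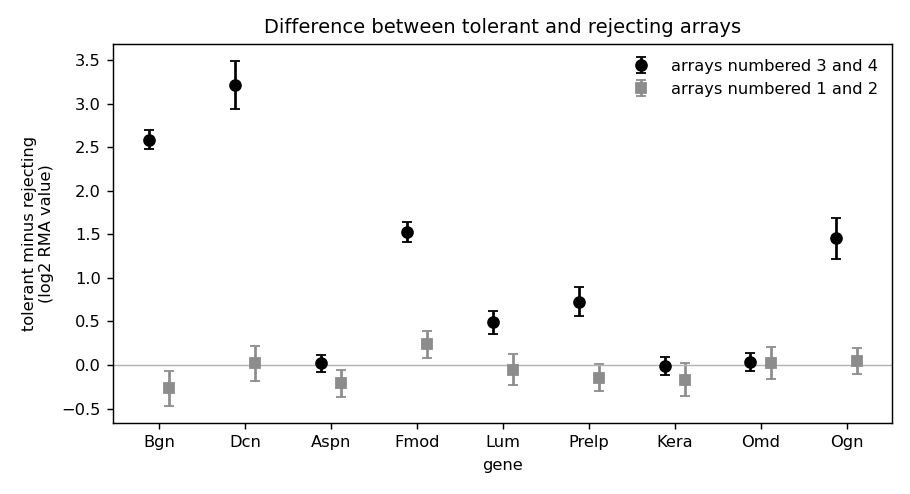
Difference between tolerant and rejecting arrays (log2 RMA value, tolerant minus rejecting) for each of the 9 genes, black circles for arrays numbered 3 and 4 and grey squares for arrays numbered 1 and 2; bars are 1 standard error from limma. On arrays 3 and 4 the differences of Bgn, Dcn, Fmod and Ogn exceed 1, and on arrays 1 and 2 all 9 lie between -0.27 and 0.24.

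Arrays 1 and 2 gave no like pattern. There 4 of the 9 members were higher in tolerant samples, and the median difference was -0.05. The largest were those of Bgn, -0.27 (standard error 0.20), and Fmod, 0.24 (standard error 0.16). Fmod and Ogn did not overlap with tolerant higher, against 17.2% of all probe sets, and Aspn and Prelp did not overlap with tolerant lower, against 17.1% of all. Of the members' values on these arrays 1 was above the line, that of Bgn on rejecting array 2, and the differences of the other members there are between values under the line. Limma called 0% of all probe sets on these 4 arrays, and 1093 had an unadjusted p under 0.05.

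Over all 8 arrays the mean of Bgn was 1.29 ± 0.34 for the rejecting group and 2.45 ± 1.91 for the tolerant one (SD, n = 4 each), and Dcn 1.01 ± 0.56 and 2.62 ± 2.35. The spread within the tolerant group exceeded the differences of 1.16 and 1.62, since tolerant arrays 1 and 2 read as low as the rejecting ones. Without tolerant array 3 the differences were 0.59 and 0.86, and without tolerant array 4 they were 0.62 and 1.03. That of Ogn, 0.75, was 0.41 without tolerant array 4. For Fmod the averages were 0.47 ± 0.06 and 1.35 ± 0.70, and for Ogn 0.30 ± 0.06 and 1.05 ± 0.82. These 2 genes were the members whose groups did not overlap over the 8 arrays, against 1.09% of all probe sets with tolerant higher. Limma called 0% of all probe sets over the 8 arrays, with 613 at an unadjusted p under 0.05.

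The difference on arrays 3 and 4 minus that on arrays 1 and 2 was 2.86 for Bgn, 3.20 for Dcn, 1.29 for Fmod and 1.41 for Ogn. In the limma interaction of group and array set, Bgn and Dcn were among the called probe sets, which made up 0.0566% of all. Neither was called with quantile normalization again, with all probe sets tested or without tolerant array 1, 2 or 3, and Dcn was not called without rejecting array 1 or 2. This contrast contains the one that chose the family, and it cannot separate an absent difference on arrays 1 and 2 from an absent signal there.

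The members were next compared between the sets within the rejecting group, arrays 3 and 4 minus arrays 1 and 2, a contrast that chose no member but shares rejecting arrays 3 and 4 with the one that did. Limma called 0 of the 9, against 2.01% of all probe sets called higher on arrays 3 and 4. Dcn differed by 0.85 (standard error 0.26, limma adjusted p = 0.182) and Bgn by 0.45 (standard error 0.17, limma adjusted p = 0.283). The other members differed by between -0.41 and -0.05, and the median was -0.08. Of the 9, Bgn and Dcn alone thus had higher means on rejecting arrays 3 and 4 than on rejecting arrays 1 and 2, and neither passed the test.

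Markers of some other cell types, though not of all those listed, were mostly higher on the same tolerant arrays. Levels of a list are given as the sum of its log2 values on an array, and the members summed to 4.83 and 5.34 on rejecting and to between 14.9 and 15.4 on tolerant arrays 3 and 4. All 12 fibroblast markers were higher in tolerant samples, with a median difference of 0.30. This list shares Col1a1, Col1a2 and Col3a1 with the collagens described below, so the 2 lists are not independent. Without tolerant array 3, 9 of 12 were higher, with a median of 0.22, and without rejecting array 4, 10 of 12 were. The 12 markers summed to between 11.1 and 12.7 on rejecting and 15.3 and 16.9 on tolerant arrays 3 and 4, and to between 8.11 and 9.001 on arrays 1 and 2. Of these, Pdgfra, Fap, Fbln2, Mfap5, Dpt, Postn and Tcf21 were under the line on all 8 arrays. Limma called 0 of the 12. Fbln1, a matrix glycoprotein, read 0.63 and 0.42 on rejecting and 1.35 and 1.37 on tolerant arrays 3 and 4 (limma adjusted p = 0.184). The part of fibroblast RNA in the members' differences was not tested.

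Kidney tubule markers had the highest median difference of the 12 marker lists, 0.72, with 11 of 12 higher. Without tolerant array 3 the median was 0.40, with 8 of 12 higher. They summed to between 9.37 and 9.64 on rejecting and between 19.8 and 25.6 on tolerant arrays 3 and 4. Limma called 2 higher, against 0.0471% of all probe sets, and the list was chosen with earlier results of these data known. The 2 were Slc12a3, the thiazide-sensitive cotransporter of the distal tubule, with a difference of 2.93 (standard error 0.19, limma adjusted p = 0.0359), and Calb1, a tubular calcium-binding protein, with 1.64 (standard error 0.12, limma adjusted p = 0.0440). Without tolerant array 3 or without tolerant array 4 neither was called. Calb1 was also not called without rejecting array 3, without rejecting array 4, after quantile normalization again or under cyclic loess. Umod, the urinary protein uromodulin, read 1.76 and 2.06 on rejecting and 6.61 and 4.60 on tolerant arrays 3 and 4 (limma adjusted p = 0.226). Pvalb, Lrp2 and Cubn were under the line on all 8 arrays. The part of kidney RNA in the members' differences was not tested.

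Of 12 macrophage markers, 10 were higher, with a median difference of 0.37. They summed to between 6.75 and 11.02 on rejecting and 16.0 and 17.4 on tolerant arrays 3 and 4. Lyz2, lysozyme, read 1.41 and 0.23 on rejecting and 3.30 and 3.14 on tolerant arrays, and Adgre1, Cd14, Fcgr1, Marco and Mertk were under the line on all 8. Endothelial markers had 8 of 12 higher, with sums of 7.37 to 8.94 and 10.7 to 12.2, and Pecam1, Cdh5, Kdr, Tek, Tie1, Esam and Cldn5 under the line on all arrays. Emcn, the endothelial sialoglycoprotein endomucin, had a difference of 1.25 (limma adjusted p = 0.111). All 9 epithelial markers were higher, with sums of 6.43 to 6.98 and 8.54 to 10.2, and Epcam, Krt19, Cldn4 and Elf3 under the line throughout. Without rejecting array 3, rejecting array 4 or tolerant array 3, 8 of the 9 epithelial markers were higher. Limma called 0 in each of these 3 lists, although Lyz2 was called without rejecting array 3 and without rejecting array 4, and their part in the members' differences was not tested.

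The 7 remaining marker lists, some of producers such as cartilage and bone and some of other cells, had smaller median differences. Pericyte and smooth muscle markers had a median difference of 0.01, with 6 of 11 higher, and Myh11, Pdgfrb and Rgs5 were under the line on all 8 arrays. Cartilage markers had 0.07, with 8 of 11 higher (0.16 without tolerant array 4). Comp, a cartilage matrix protein, read 0.98 and 0.77 on rejecting and 1.18 and 1.25 on tolerant arrays 3 and 4, and Acan, the cartilage proteoglycan aggrecan, was under the line throughout. Bone markers had -0.08, with 2 of 6 measured genes higher and Ibsp, Sp7, Alpl, Dmp1 and Phex under the line. Adipocyte markers had 0.09 (5 of 7 higher), adrenal cortex markers 0.09 (6 of 8) and B cell markers -0.05 (2 of 5). Without rejecting array 3 the adipocyte median was -0.03 and the B cell median 0.03, without tolerant array 3 the adipocyte median was -0.01, and without rejecting array 4 the pericyte and smooth muscle median was -0.08, so these signs rest on 1 array. Cyclic loess also turned the last of these to -0.01. The 9 measured T cell markers had a median of 0.13, with 7 higher (0.28 without tolerant array 3 and 0.02 without tolerant array 4), and summed to between 7.87 and 9.58 on rejecting and 9.63 and 12.9 on tolerant arrays 3 and 4. Limma called 0 genes in these 7 lists on arrays 3 and 4.

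**Figure D3:**
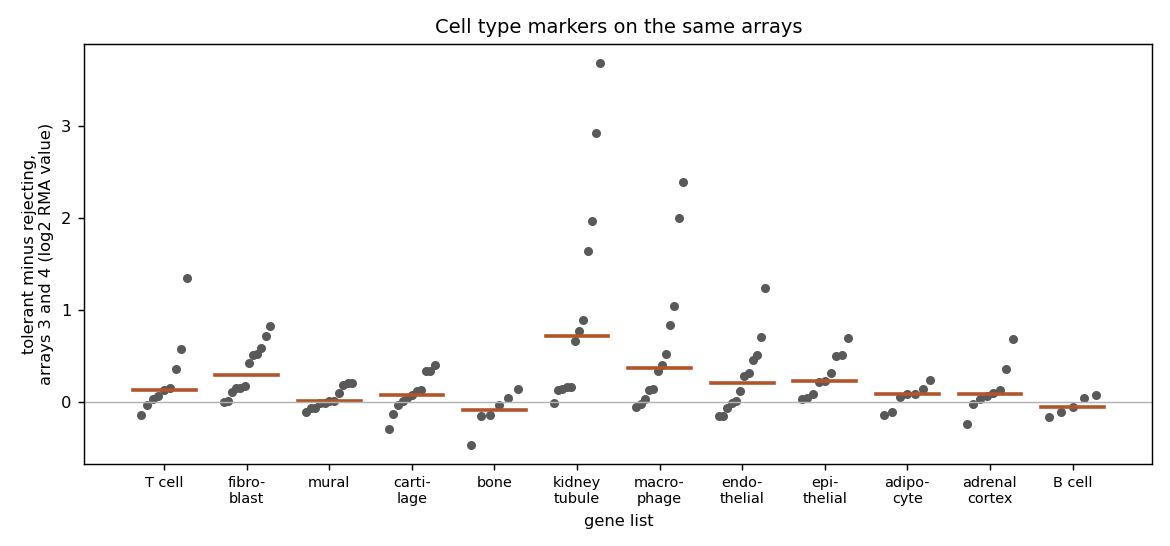
Difference between tolerant and rejecting arrays numbered 3 and 4 (log2 RMA value) for each measured gene of 12 cell type marker lists; each grey point is 1 gene and each orange bar the list's median. Kidney tubule markers have the highest median, 0.72, followed by macrophage markers with 0.37 and fibroblast markers with 0.30.

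The other genes of the leucine-rich family were mostly at background, with Epyc, Optc, Nyx, Podn and Ecm2 under the line on all 8 arrays. Of 8 measured, 3 were higher on tolerant arrays 3 and 4, the median difference was -0.06 and limma called 0. Without rejecting array 3 or without tolerant array 4 the sign of that median turned (0.04 and 0.01). Podnl1, of the podocan branch, had the largest of the 8, 0.30 (limma adjusted p = 0.657), and read 0.70 and 0.64 on rejecting and 1.05 and 0.89 on tolerant arrays. Podn, podocan itself, differed by 0.23 and Epyc, the cartilage proteoglycan epiphycan, by -0.11.

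Collagens, the main binding partners of these proteoglycans, had a median difference of 0.17 on arrays 3 and 4, with 10 of 14 higher and 0 called. The median was 0.36 without rejecting array 3 and 0.09 without rejecting array 4. Col1a1, a chain of type I collagen, read 3.39 and 3.08 on rejecting and 4.14 and 3.78 on tolerant arrays 3 and 4. The values on arrays 1 and 2 were 2.08 and 1.48, and 1.90 and 1.83, so that it was above the line on all 8 arrays. Col14a1 and Col12a1, which sit on the fibril surface, had the largest differences of the list, 1.02 and 0.90 (limma adjusted p = 0.224 each), and were above the line on the 2 tolerant arrays alone. Within the rejecting group, against 2.01% of all probe sets, 3 of the 14 collagens were called higher on arrays 3 and 4. These were Col1a1 by 1.46 (standard error 0.21, limma adjusted p = 0.0102), Col1a2 by 0.94 (standard error 0.15, limma adjusted p = 0.0144) and Col6a1 by 1.34 (standard error 0.28, limma adjusted p = 0.0468). These 3 calls were lost when the arrays were quantile normalized again, under cyclic loess and without rejecting array 2, without rejecting array 1 Col1a1 alone was called, and without rejecting array 3 Col6a1 was not. Of the 14 collagens, 8 were above the line on both rejecting arrays 3 and 4. Col5a2 and Col6a3 were under it on all 8 arrays. Of the 9 proteoglycans Bgn and Dcn alone were above the line on any rejecting array. The values on rejecting arrays 3 and 4 are among those that chose the family, so nothing is read from setting the 2 lists side by side.

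Among 20 other proteoglycan core proteins, 14 were higher on arrays 3 and 4, with a median of 0.07 (0.03 without rejecting array 3 and 0.03 without tolerant array 3) and 0 called. Gpc3, the heparan sulfate proteoglycan glypican-3, read 0.83 and 0.67 on rejecting and 2.09 and 2.01 on tolerant arrays (difference 1.30, standard error 0.11, limma adjusted p = 0.0581), and was the 1 gene of the list with a difference of at least 1. Hspg2, the basement membrane proteoglycan perlecan, differed by 0.39 (limma adjusted p = 0.515). Srgn, serglycin, the granule proteoglycan of blood cells, read 2.49 and 4.24 on rejecting and 3.42 and 4.31 on tolerant arrays, so that the groups overlapped.

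Among enzymes that build the sugar chains, 14 of 21 measured genes for chondroitin and dermatan sulfate were under the line on all 8 arrays. In the list for keratan and tyrosine sulfation 6 of 13 were, and the other 7 were above the line on at least 1 array. For the linker and chondroitin or dermatan sulfate, 12 of 21 measured genes were higher, with a median of 0.08 (0.03 without rejecting array 4 and 0.01 without tolerant array 3). Csgalnact1 and Chsy1, which start and extend chondroitin chains, had 0.35 and 0.34 (limma adjusted p = 0.564 and 0.702). For keratan and tyrosine sulfation, 8 of 13 were higher, with a median of 0.06, which became -0.07 without tolerant array 3 and 0.02 without rejecting array 3. Chst2, a sulfotransferase, differed by 0.42 and B4galt4, a galactosyltransferase, by -0.37 (limma adjusted p = 0.499 and 0.594). Limma called 0 in both lists.

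Of 13 proteases and helpers, 7 were higher, with a median of 0.01, which was -0.04 without rejecting array 4, and 0 called. Pcolce, which enhances the cleavage of procollagen, stood apart in the list. It read 0.99 and 0.91 on rejecting and 2.88 and 2.28 on tolerant arrays 3 and 4, a difference of 1.63 (standard error 0.21, limma adjusted p = 0.1503). Bmp1, the procollagen proteinase that also trims the biglycan propeptide, differed by 0.28 (limma adjusted p = 0.718). Among 17 receptors and growth factors, 11 were higher, with a median of 0.14 (0.06 without tolerant array 3) and 0 called. Lrp1, an endocytic receptor of decorin, read 1.04 and 0.77 on rejecting and 1.63 and 1.81 on tolerant arrays (limma adjusted p = 0.233). Tlr2, Tlr4 and Cd14, through which soluble biglycan signals, were under the line on all 8 arrays.

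**Figure D4:**
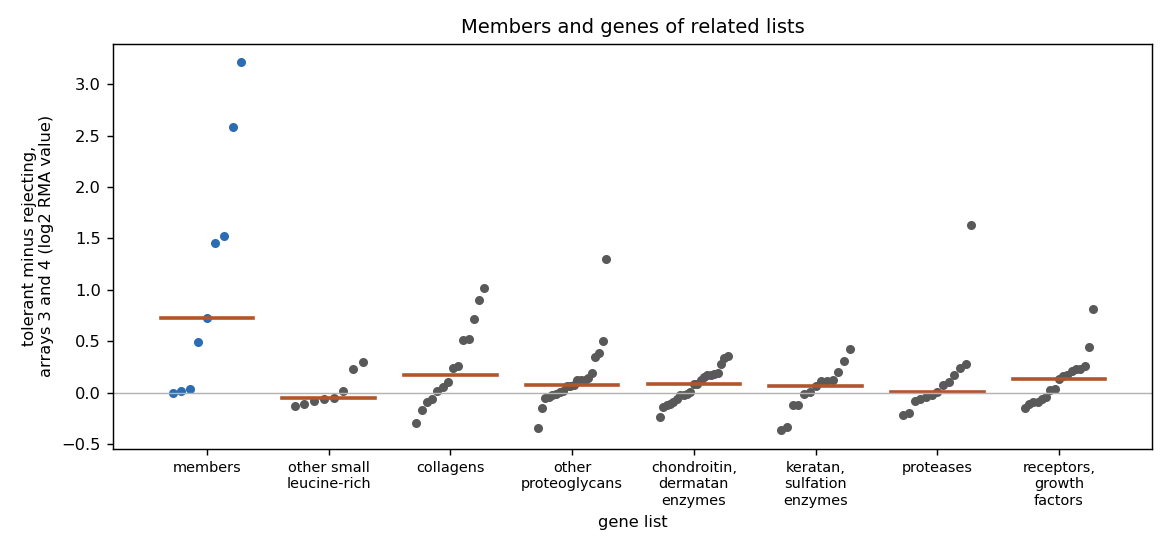
Difference between tolerant and rejecting arrays numbered 3 and 4 (log2 RMA value) for each measured gene; blue points are the 9 members, chosen partly for these values, grey points the genes of 7 related lists, and orange bars the medians. The members' median is 0.73, and the medians of the other lists lie between -0.06 and 0.17.

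Likeness of pattern was measured as the root mean square distance between log2 values over the 8 arrays, each gene centred on its own mean. It rests on 8 arrays in 2 sets, so a small distance is a description of these arrays. Nearest to Bgn were Slc12a3 (0.208), the ferritin heavy chain gene Fth1 (0.308), the tetraspanin gene Cd81 (0.321), Tmem52b (0.362) and Hsd11b2, the tubular enzyme that inactivates glucocorticoids (0.376). Nearest to Dcn were Igfbp7, a secreted binding protein of insulin-like growth factors (0.370), the membrane protein gene Serinc3 (0.382), the collagen-binding matricellular gene Sparc (0.430), the complement inhibitor gene Serping1 (0.446) and Bgn (0.478). Sparc read 2.83 and 2.19 on rejecting and 4.82 and 4.45 on tolerant arrays 3 and 4, against 0.70 to 1.64 on arrays 1 and 2. Lum, whose values were under the line on all 8 arrays, was nearest to Slfn5, Huwe1, Irs1, Ythdc1 and Ing3, at distances from 0.063 to 0.097. These are distances between near-flat patterns. Among the members, the flat genes Aspn and Omd were closest (0.125), and Fmod and Ogn were the closest pair above background (0.239). No other member came nearer to Bgn than Dcn.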

How the data were processed

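The table used here holds log2 values for 35556 probe sets on 8 mouse whole-transcript arrays, and the submitters' processing notes name RMA and Affymetrix Expression Console as the authors' tools. RMA subtracts background, makes intensity distributions equal and gives each probe set a single value. Their versions and the build behind the probes: not given in the sources used here. No source states the base of the logarithm, and base 2 was taken from the arrays' maxima, 12.57 to 12.68. RNA was extracted with a column kit and labelled with biotin, per the labels' protocols.

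Gene names came from the platform annotation, updated by Entrez identifier to GRCm38.p6. The tests used 21218 probe sets with 1 symbol; 1881 had several symbols and 12457 none listed. A gene with several was represented by the one with the highest mean. Limma (3.58.1, R 4.3.3) fitted tolerant minus rejecting over all 8 arrays and within each set, without trend, 2-sided, with Benjamini-Hochberg adjustment over the 21218 and a threshold of 0.05. The interaction and the contrast within rejecting arrays came from a fit of the 4 means of group and set. The fits over all 8 arrays and within each set were tested on data simulated without a difference between the sets. The interaction and the contrast within rejecting arrays were not tested in this way. The background line, at the 99th percentile of receptor probe sets, leaves about 1% of silent genes above it. Precision is limited by the number of arrays.

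The members, the 7 related and 12 marker lists, the array sets and the alternatives were chosen with earlier results of these data known; the scaling and leave-one-out checks of the lists were added after their values were seen. Named were all members, from each list up to 4 genes lowest in unadjusted p on arrays 3 and 4, and the 5 genes nearest in pattern to Bgn, Dcn and Lum; other genes were named after their values were seen. Of 229 listed genes 222 were measured, and counts are over the measured genes. Deviations of same-numbered arrays from their group means correlated by 0.499, 0.507, 0.410 and 0.599, all over 0.1. The fits above have no block, and fits with the number as a block are given where they changed a call. The pairing comes from the data and not the labels, and opposite-group arrays of different number within a set correlated by 0.411 to 0.581. Plots used Python 3.11.15 and matplotlib 3.10.9.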

Additional observations from a re-analysis of the deposited data

Results flagged for a closer look

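Among the members, 1 array was far from the others of its group by Dixon's test, which chance would give in about 1 in 20 groups. It was tolerant array 4 for Omd, at 0.175, where the other tolerant arrays read 0.23 to 0.24. All 4 values lie under the background line.

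The differences between the groups were themselves different between the array sets for 3 of the genes named. The difference on arrays 3 and 4 minus that on arrays 1 and 2 was 2.86 for Bgn, 3.20 for Dcn and 3.17 for the kidney tubule gene Slc12a3 (limma interaction adjusted p = 0.00543 for Slc12a3). All 3 passed limma's interaction threshold. The calls of all 3 were lost with quantile normalization again, with all probe sets tested, without tolerant array 1 and without tolerant array 3. Without tolerant array 2 those of Bgn and Dcn were lost, without rejecting array 1 that of Dcn, and without rejecting array 2 those of Dcn and Slc12a3. The values of Bgn and Dcn on arrays 3 and 4 are among those that chose the family, so for them this is a description. On arrays 1 and 2 at most 1 of the 4 values was above the background line for each of the 3 genes.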

How the results depend on the processing

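The count of probe sets called on arrays 3 and 4, 11, was 0 with all 35556 probe sets tested, 5 with a filter on dim probe sets (3472 tested), 26 with trend and robust moderation, 25 at an adjusted p under 0.1 and 81 with the spread shared by all 8 arrays, and from 0 to 48 without 1 array. Bgn and Fmod were called there; quantile normalization again added Dcn, the filter kept Bgn only, trend and robust moderation called Fmod and Ogn, and the shared spread called Bgn, Dcn, Fmod and Ogn. With the replicate block 8 probe sets were called, 5 of them among the 11, and 0 over all arrays and on arrays 1 and 2. On arrays 1 and 2 the count of 0 went to between 0 and 2 without 1 array, and the median member difference of -0.0527 to between -0.179 and -0.0397. The interaction count of 12 was 0 with quantile normalization again and with all probe sets, 32 at an adjusted p under 0.1 and 0 to 76 without 1 array, and its median member difference of 0.872 was between 0.652 and 1.09. The 450 probe sets called between the sets within rejecting arrays became 145 with quantile normalization again, 33 with cyclic loess, 734 at an adjusted p under 0.1, 140 with the rejecting arrays alone and 100 to 640 without 1 array. The cause was not tested. On arrays 3 and 4 the differences ranged from 2.52 to 2.69 for Bgn, 2.88 to 3.55 for Dcn, 1.44 to 1.62 for Fmod, 1.10 to 1.80 for Ogn, 0.51 to 0.95 for Prelp and 0.35 to 0.63 for Lum, without a change of sign. Kera kept its sign in 2 of 7 alternatives and Aspn in 6 of 7. With the line at the 95th percentile, 6 members in place of 4 were above it on both tolerant arrays 3 and 4, the added ones being Lum and Prelp. On arrays 1 and 2, 2.52% to 5.57% of genes were above the line, and of the members Bgn alone, on 1 array.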
